A study of Mus musculus with 12 samples.

Results

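The genes described are 9 secreted-protein genes of the mouse mammary epithelial cell line HC11, 5 kallikreins (Klk6, Klk7, Klk8, Klk10 and Klk11) and 4 genes with a WAP domain (Wfdc2, Wfdc17, Wfdc18 and Slpi). They were taken from the expression table by gene symbol, as 9 of its 57180 genes, and 8 of the 9 had at least 1 TPM in 3 or more of the 12 libraries, the filter for testing that 14426 genes passed; Klk7 did not. TPM counts a gene's transcripts, corrected for its length, as a share of the transcripts of the library. The names on the list were chosen from measured values of these same libraries, so the levels and fits below are descriptions of the chosen genes, and each adjusted p says where a gene stood in the fit over all genes, not that the choice was borne out.

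The cells were HC11 aggregates, formed overnight after flow sorting in RPMI medium with EGF and insulin, and sampled at 0 h and at 36 h of an in vitro assay of collective migration. Control cells (labelled scr, genotype WT) were compared with cells in which Snail1 was knocked down (labelled snail1, genotype Snail1 KD), with 3 libraries in each of the 4 groups. Snail1, encoded by Snai1, is a zinc-finger transcriptional repressor that binds E-box sequences and is known for its part in epithelial-mesenchymal transition. The control 36 h libraries carry the numbers 1, 3 and 4, and the title of library 4 starts with the word mix, which the labels do not explain. The deposited table averages control 36 h libraries 1 and 3 in one column and repeats library 4 alone in another; the labels give all 3 the same genotype and time, and they are used as 1 group. Whether the knockdown is 1 clone or a pool is not given in the sources used here. Nor is it said that same-group libraries are separate cultures, and every p-value measures the spread between these libraries, which may be technical. Depth is unknown, because the table gives only TPM.

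Kallikreins are secreted serine proteases with trypsin-like or chymotrypsin-like specificity, made as inactive precursors that lose a short propeptide, often cut by another protease of the same kind. In skin they cleave the junction proteins that hold surface cells together, and their activity is restrained by inhibitors such as LEKTI, the product of Spink5. The WAP domain is a small disulfide-bonded fold that many protease inhibitors and antimicrobial proteins of milk and mucosal fluids share. SLPI, which carries it, inhibits neutrophil elastase and cathepsin G, and WFDC2 is the secreted epithelial protein known in the clinic as HE4.

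The genes lie in 3 places. In RefSeq's order of protein-coding genes on chromosome 7 (assembly GRCm38.p6, used for order only) the run is Klk14, Klk13, Klk12, Klk11, Klk10, Klk9, Klk8, Klk7, Klk6, Klk5 and Klk4. Wfdc17, Wfdc18 and Wfdc21 follow each other on chromosome 11, and Slpi and Wfdc2 are on chromosome 2. Promoter windows of 300 bases, from 250 before to 50 after the start site, were read from RefSeq's GRCm38.p6 table for all 9 genes, 12 windows in all, and each was searched for the E-box CAGGTG on both strands (CACCTG is the same site read from the other strand). The 3 genes with the site are shown because the knocked-down protein binds it, with the site in capitals and each sequence 5′ to 3′ on the gene's strand: Slpi at chr2:164356458-164356757 (minus strand), Wfdc2 at chr2:164562465-164562764 (plus strand) and Klk11 at chr7:43774367-43774666 (plus strand).
Slpi: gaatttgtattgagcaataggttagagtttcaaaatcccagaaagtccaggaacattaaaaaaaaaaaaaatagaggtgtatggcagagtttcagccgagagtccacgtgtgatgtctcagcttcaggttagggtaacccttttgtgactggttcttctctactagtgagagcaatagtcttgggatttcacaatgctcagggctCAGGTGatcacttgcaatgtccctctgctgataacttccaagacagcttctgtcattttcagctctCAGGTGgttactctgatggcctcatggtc
Wfdc2: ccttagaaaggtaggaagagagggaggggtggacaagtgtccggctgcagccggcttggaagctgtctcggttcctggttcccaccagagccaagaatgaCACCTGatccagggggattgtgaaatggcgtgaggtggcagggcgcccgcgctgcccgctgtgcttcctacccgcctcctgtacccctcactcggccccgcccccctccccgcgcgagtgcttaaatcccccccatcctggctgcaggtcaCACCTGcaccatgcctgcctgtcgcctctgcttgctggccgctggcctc
Klk11: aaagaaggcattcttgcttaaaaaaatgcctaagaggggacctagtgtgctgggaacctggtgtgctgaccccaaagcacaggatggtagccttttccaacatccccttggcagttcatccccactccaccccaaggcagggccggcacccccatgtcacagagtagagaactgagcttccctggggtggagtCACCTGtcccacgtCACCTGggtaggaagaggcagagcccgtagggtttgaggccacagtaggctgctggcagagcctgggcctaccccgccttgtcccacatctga
Slpi holds the site 45 bases before and 21 bases after its start, Wfdc2 150 bases before and 1 base after, and Klk11 57 and 43 bases before in this window and nowhere in its other window. Over all 32851 windows of the same length, 20.2% hold at least 1 such site and 2.88% hold 2 or more. In the windows of Klk6, Klk7, Klk8, Klk10, Wfdc17 and Wfdc18 these letters are absent, and the AP-1 motif TGANTCA, found in 7.81% of all windows, is absent from all 12. A match is a string of letters, not a measured site.

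The windows of Wfdc17 (chr11:83703806-83704105, plus strand) and Wfdc18 (chr11:83708754-83709053, plus strand) are shown because the ratio of these neighbours within a library, described further on, did not overlap between genotypes, and the part in capitals is the stretch over which the pair could be aligned.
Wfdc17: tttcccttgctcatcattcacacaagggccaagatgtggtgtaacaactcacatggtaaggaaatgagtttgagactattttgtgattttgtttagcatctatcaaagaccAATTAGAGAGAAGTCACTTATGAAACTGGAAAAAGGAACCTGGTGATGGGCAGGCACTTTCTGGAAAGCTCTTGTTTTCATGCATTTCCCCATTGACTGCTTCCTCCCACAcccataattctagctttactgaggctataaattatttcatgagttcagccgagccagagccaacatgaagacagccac
Wfdc18: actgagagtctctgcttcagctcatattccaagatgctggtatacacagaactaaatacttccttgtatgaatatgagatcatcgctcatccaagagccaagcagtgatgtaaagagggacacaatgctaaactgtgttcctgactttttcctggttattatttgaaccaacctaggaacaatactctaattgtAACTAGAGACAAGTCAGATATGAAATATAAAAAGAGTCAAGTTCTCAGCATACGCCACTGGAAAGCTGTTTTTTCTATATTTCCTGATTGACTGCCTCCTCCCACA
The local alignment spans 112 columns with 82 identities (73.2%) and 7 gaps. It covers bases 112 to 222 of the Wfdc17 window and bases 195 to 300 of the Wfdc18 window. The letters TATAAA stand in both windows and in 13.6% of all windows.

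The 9 genes covered a wide range of levels. Slpi ranked between 22nd and 131st of all genes by TPM in each of the 12 libraries, Wfdc18 between 54th and 777th, and Wfdc2 between 188th and 401st. Klk6 ranked between 4056th and 13229th, Klk8 between 4798th and 11046th, Klk10 between 7100th and 11524th and Wfdc17 between 4929th and 11668th, and the lowest were Klk11 (12526th to 19437th) and Klk7 (13343rd to 23428th). Summed over the 9 genes, the level was 4161 ± 412 TPM in control 0 h, 3309 ± 219 in knockdown 0 h, 2161 ± 137 in control 36 h and 1835 ± 17.2 in knockdown 36 h (mean ± SD, n = 3), almost all of it from the WAP-domain genes. The 5 kallikreins together came to 46.4 ± 3.53, 49.0 ± 25.9, 20.0 ± 3.89 and 15.7 ± 2.24 TPM in the same order, so the sums over the chosen genes stood lower at 36 h than at 0 h in control. Klk10 and Klk11 overlapped between the times in both genotypes. As these are bulk libraries, fewer cells that make a transcript and less of it per cell cannot be told apart.

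**Figure D1:**
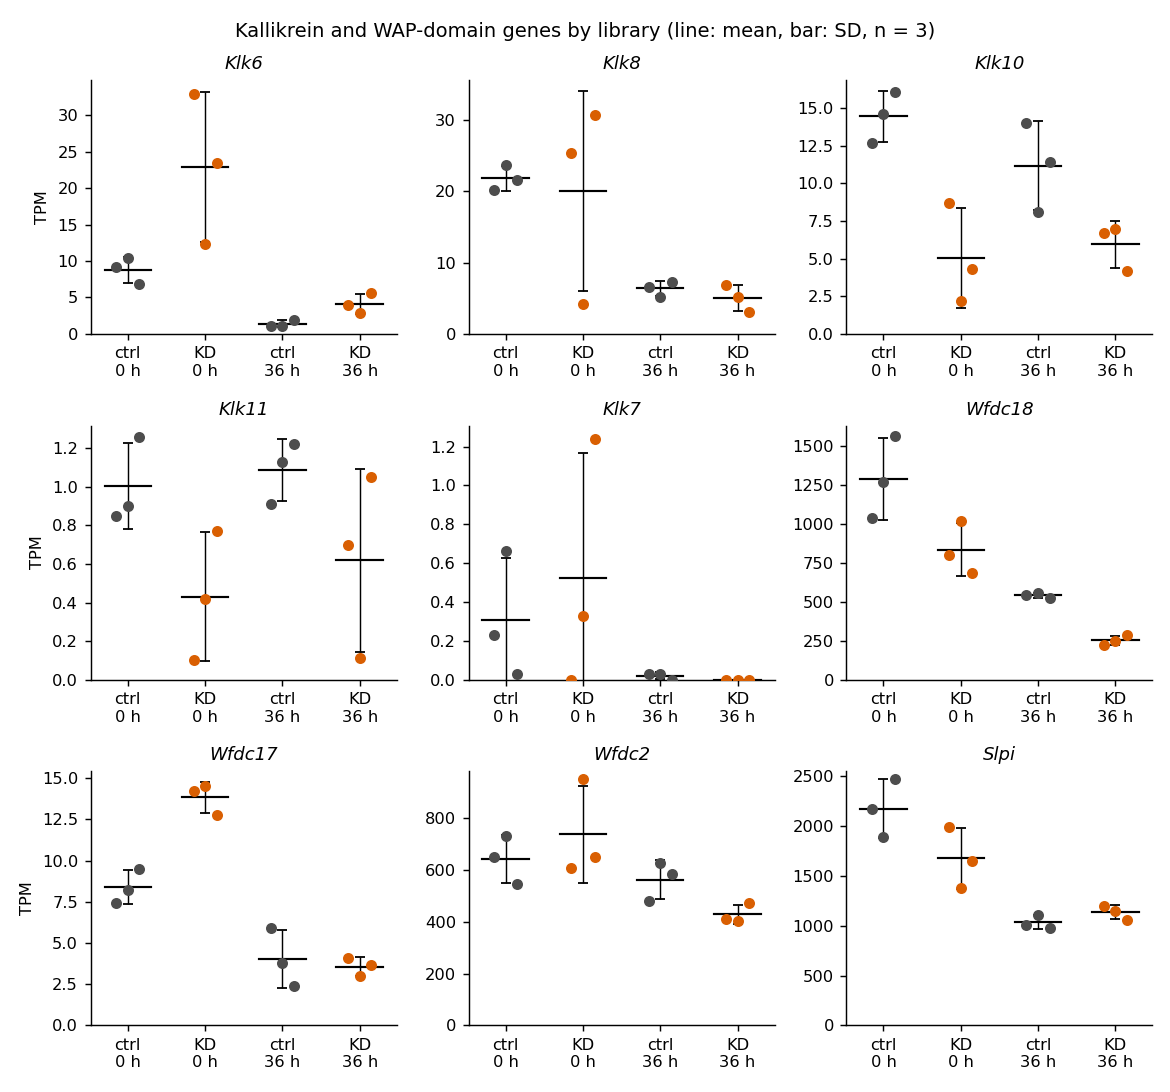
TPM of each of the 9 genes (vertical axes, each from 0) in the 12 libraries, grouped by control (ctrl, grey) or Snail1 knockdown (KD, orange) and by time; points are libraries, lines are means and bars are SD (n = 3). Klk6 sits higher in the knockdown at both times and low at 36 h, Klk10 sits lower in the knockdown, and Wfdc18 steps down from control 0 h to knockdown 36 h.

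Snai1 stood at 1.34 to 2.51 TPM in control 0 h against 0.48 to 0.79 in knockdown 0 h, and at 2.69 to 3.92 against 0.20 to 0.58 at 36 h, as the labels say (with scaling the 0 h groups overlapped). Library 2 of knockdown 0 h stands apart: its size factor by the median-of-ratios method was 0.540 against 0.889 to 1.198 elsewhere, mitochondrially encoded genes took 13.99% of its TPM against 1.45% to 6.15%, and its TPM relative to the rest of its group varied with gene length. The median of all genes was -0.41 on the log2 scale for knockdown minus control at 0 h and 0.33 for 36 h minus 0 h in the knockdown, and -0.02 and 0.03 after median-of-ratios scaling, so comparisons that use knockdown 0 h are plotted under both scalings. In the same 2 comparisons the share of called genes that were higher was 17.5% and 88.9% with the deposited TPM and 41.6% and 75.8% with scaling. Of the mammary epithelial markers Epcam, Cdh1, Krt8, Krt18, Krt5 and Krt14, 6 of 6 were present in every group. Their summed level was 10063 to 10278 TPM in control 0 h, 3325 to 10276 in knockdown 0 h, 15897 to 18764 in control 36 h and 19472 to 25456 in knockdown 36 h. The 6 markers did not all move in the same direction over time in control. There 1 was called higher and the median was -0.13. In the knockdown 2 were called higher, with a median of 0.67. Over all genes 0.25% were called higher in control and 0.998% in the knockdown. The part of this summed level in the lower levels of the described genes at 36 h was not tested.

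Klk6 encodes a trypsin-like kallikrein known from brain and from several carcinomas. Its levels (ENSMUSG00000050063) in the 3 control libraries at 0 h were 9.21, 10.3 and 6.79 TPM. Knockdown 0 h libraries 1 to 3 had 33.0, 12.3 and 23.5 TPM, all above the controls. The 36 h controls had 1.08, 1.10 and 1.96 TPM and the 36 h knockdown had 4.01, 2.82 and 5.59, again without overlap. The gene thus stood higher in the knockdown at each time and lower at 36 h in each genotype.

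In the fit over all genes (limma on log2(TPM + 1), called at a Benjamini-Hochberg adjusted p under 0.05), Klk6 was higher in the knockdown at 0 h by 1.21 (SE 0.34, adjusted p = 0.0357), with a mean 2.61 times that of control. This call was lost without any 1 of the control 0 h libraries (adjusted p = 0.0947, 0.0727 and 0.12 without libraries 1, 2 and 3), without knockdown 0 h library 1 (0.0813) and without knockdown 36 h library 1 (0.0549), and held with median-of-ratios scaling (1.64, adjusted p = 0.00389). At 36 h the difference was 1.10 (SE 0.34) and did not pass (adjusted p = 0.127). It passed with scaling (1.14, adjusted p = 0.0396) and without knockdown 0 h library 2, which is in neither group and leaves the estimate at 1.10 (adjusted p = 0.0149). Over the 36 h Klk6 fell by 2.04 in control (SE 0.34, adjusted p = 0.03) to 15.7% of its 0 h mean. It fell by 2.15 in the knockdown (SE 0.34, adjusted p = 0.0125) to 18.1%. The control call was lost without any 1 control library (adjusted p from 0.089 to 0.162) and without knockdown 36 h library 1 (0.0663), and the knockdown call without knockdown 36 h library 1 (0.0644) or 2 (0.0759). Both fits kept their calls with scaling.

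Klk10, a secreted kallikrein described as lost in some breast cancers, differed from Klk6 in its pattern. Control 0 h libraries had 12.7, 14.6 and 16.1 TPM, and knockdown 0 h libraries 8.70, 2.16 and 4.32. Later, at 36 h, the controls had 14, 8.08 and 11.4 TPM and the knockdown 6.72, 6.98 and 4.16. All knockdown libraries lay below all controls at the same time, and 0 h and 36 h overlapped in each genotype. The 0 h difference was -1.49 (SE 0.37, adjusted p = 0.0212), at 35.0% of the control mean, and -1.11 (adjusted p = 0.0268) with scaling. It did not pass with control 0 h library 1, 2 or 3 left out (adjusted p = 0.0602, 0.067 and 0.073), and held at -1.10 without knockdown 0 h library 2, although with that library out and scaling together it reached -0.93 (adjusted p = 0.0517). At 36 h it was -0.80 (SE 0.37, adjusted p = 0.311).

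Klk8, also called neuropsin, is a trypsin-like protease of brain and epidermis. Control 0 h libraries had 20.2, 23.7 and 21.6 TPM, and knockdown 0 h libraries 25.4, 4.17 and 30.6, so that library 2 alone lay below the controls and the others lay above them. The 36 h controls had 6.56, 5.20 and 7.31 TPM and the knockdown 6.81, 5.20 and 3.09. No comparison of Klk8 passed: the knockdown difference at 0 h was -0.48 (SE 0.55, adjusted p = 0.521) and turned to 0.34 without knockdown 0 h library 2. The difference between 36 h and 0 h was -1.64 (SE 0.55, adjusted p = 0.522) in control, where all 36 h libraries lay below all 0 h libraries, and -1.48 (adjusted p = 0.25) in the knockdown; with scaling the 0 h difference was -0.07 and that over time in the knockdown -1.80 (adjusted p = 0.061). Without knockdown 0 h library 2 both passed, at -1.64 (adjusted p = 0.00392) and -2.31 (adjusted p = 0.00107).

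Klk11, a trypsin-like kallikrein of several secretory epithelia, stayed near 1 TPM. It had 0.85, 0.90 and 1.26 TPM in control 0 h, 0.10, 0.42 and 0.77 in knockdown 0 h, 0.91, 1.13 and 1.22 in control 36 h and 0.70, 0.11 and 1.05 in knockdown 36 h. Its fitted differences lay between -0.51 and 0.16 and none passed. Klk7, the chymotrypsin-like protease of the outer epidermis, had at most 0.66 TPM in control 0 h and 1.24 in knockdown 0 h, at most 0.03 in control 36 h, and was listed at 0 in all 3 knockdown 36 h libraries; it was not tested. Klk8, Klk10 and Klk11 overlap the gene 2310002F09Rik on the opposite strand in the GENCODE vM21 annotation; it had 2.55 to 4.65 TPM. The library kit marks strand, but the counting setting is not given in the sources used here, and reads of the overlapping parts may be shared, which weighs most at the level of Klk11.

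Wfdc18 (also known as Expi), a short WAP-domain gene described in mouse mammary gland, was among the most abundant transcripts of these cells. Control 0 h libraries had 1040.0, 1268 and 1567 TPM, and knockdown 0 h libraries 798, 1022 and 686. At 36 h the controls had 541, 560.0 and 525 TPM and the knockdown 226, 247 and 285. Each of the 4 groups lay apart from the others, in the order control 0 h, knockdown 0 h, control 36 h and knockdown 36 h. In the same order the means were 1292 ± 264, 835 ± 171, 542 ± 17.6 and 252 ± 30.1 TPM (SD, n = 3).

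Wfdc18 was lower in the knockdown at 36 h by a log2 difference of -1.11 (SE 0.20, adjusted p = 0.0214), at 46.6% of the control mean. This call ended with scaling (-1.0, adjusted p = 0.115) and without any 1 of the 6 libraries at 36 h (adjusted p from 0.056 to 0.102). It passed with scaling when knockdown 0 h library 2, which is in neither group, was also left out. At 0 h the difference was -0.63 (SE 0.20, adjusted p = 0.0506). It passed without knockdown 0 h library 2 (-0.78, adjusted p = 0.0068) and was -0.16 (adjusted p = 0.748) with scaling, where the groups overlapped. Scaling divides that library by 0.540. Wfdc18, with 521 bases, already stood there at 1.38 relative to libraries 1 and 3, beside a median of 1.503 for genes of 300 to 600 bases. The scaled change over time in the knockdown uses the same library. With time it fell by 1.23 in control (SE 0.20, adjusted p = 0.0234), to 42.0%, a call lost with scaling (adjusted p = 0.196), without any 1 control library (0.0508 to 0.145) and without knockdown 36 h library 1 (0.0504) or 2 (0.0531). The control fall passed with scaling when knockdown 0 h library 2 was also left out. In the knockdown it fell by 1.71 (SE 0.20, adjusted p = 0.00182), to 30.2%, and this call held with scaling (-2.07, adjusted p = 0.0121) and without each library in turn.

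Wfdc17, the neighbour of Wfdc18 and also called AMWAP for its description in activated microglia and macrophages, stood higher in the knockdown libraries at 0 h. Control 0 h libraries had 7.44, 8.22 and 9.51 TPM and knockdown 0 h libraries 14.3, 14.5 and 12.8, all above the controls. The 36 h controls had 5.94, 3.76 and 2.41 TPM and the knockdown 4.09, 2.98 and 3.64, which overlapped. The 0 h difference was 0.66 (SE 0.25, adjusted p = 0.0876) and passed with scaling (1.10, adjusted p = 0.0306). Scaling divides knockdown 0 h library 2 by 0.540. In that library genes of 300 to 600 bases already had a median of 1.503 relative to libraries 1 and 3, and Wfdc17 has 533 bases. With time it fell by 1.70 in the knockdown (SE 0.25, adjusted p = 0.0089), to 25.8%, a call lost only without knockdown 36 h library 2 (adjusted p = 0.0571) among the single libraries left out, and the difference was -0.95 (adjusted p = 0.255) in control.

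Because Wfdc17 and Slpi are also known from myeloid cells, the markers of macrophages and neutrophils are given beside them. Of 12 macrophage markers, C1qa was at 0 in all 12 libraries and 8 were below 1 TPM in all. Their summed level was 43.0 to 56.5 TPM in control 0 h, 10.6 to 28.6 in knockdown 0 h, 20.5 to 23.7 in control 36 h and 15.03 to 18.9 in knockdown 36 h, so at 0 h it was lower in every knockdown library, where Wfdc17 was higher. From 0 h to 36 h it was lower in every control library, as Wfdc17 and Slpi were, and overlapped in the knockdown. Of the 12, 3 were tested, with a median change from 0 h to 36 h of -0.96 in control and 0.29 in the knockdown. At 0 h 1 of the 3, Cd14, was called lower in the knockdown (-1.76), beside 14.6% of all genes. It did not pass in a fit of only the groups compared (adjusted p = 0.11) or without control 0 h library 3 (0.0529). Over time only Cd68, a lysosomal protein, was called. Cd68 fell by 1.68 among control libraries (adjusted p = 0.0142) and by 1.46 among knockdown libraries (adjusted p = 0.0158), beside 0.111% and 0.125% of all genes called lower. In control it no longer passed once 0 h library 1 (0.0961), 0 h library 3 (0.0851) or a single 36 h library (0.0594 to 0.0865) was removed, and in the knockdown once a single 36 h library was (0.0723 to 0.086). Of 7 neutrophil markers, Retnlg and Ngp were at 0 in all libraries and 6 were below 1 TPM in all. Their sum, nearly all S100a8, was 11.3 to 12.9 TPM in control 0 h, 6.20 to 16.6 in knockdown 0 h, 4.87 to 6.41 in control 36 h and 3.33 to 5.91 in knockdown 36 h. The part of such cells in the values of Wfdc17 and Slpi was not tested.

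Slpi, the secretory leukocyte protease inhibitor, was the highest of the 9. Control 0 h libraries had 2166, 1885 and 2471 TPM and knockdown 0 h libraries 1993, 1377 and 1652, with overlap. By 36 h the controls had 1008, 1111 and 979 TPM and the knockdown 1196, 1149.7 and 1058. All 36 h libraries lay below all 0 h libraries of the same genotype. The fall from 0 h to 36 h in control was 1.07 (SE 0.17, adjusted p = 0.021), to 47.5%. Its call ended with scaling (-1.07, adjusted p = 0.0776), without any 1 control library (adjusted p from 0.0618 to 0.145) and without knockdown 36 h library 1 (0.0504). It passed with scaling when knockdown 0 h library 2 was also left out. In the knockdown the difference was -0.55 (SE 0.17, adjusted p = 0.182), and it passed without knockdown 0 h library 2 (-0.68, adjusted p = 0.0215); with scaling it was -0.91 (adjusted p = 0.0827). Knockdown and control did not differ past the threshold at 0 h (-0.38, adjusted p = 0.123, and 0.08 with scaling) or at 36 h (0.14, adjusted p = 0.802).

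Wfdc2 passed in no comparison. Control 0 h libraries had 649, 729 and 544 TPM, knockdown 0 h libraries 606, 952 and 651, control 36 h libraries 479, 625 and 583, and knockdown 36 h libraries 409, 404 and 472. The knockdown libraries at 36 h lay below the controls of that time and below the knockdown at 0 h, and in the other comparisons the groups overlapped. The largest fitted difference was -0.75 (SE 0.21, adjusted p = 0.132) for 36 h minus 0 h in the knockdown, which passed only without knockdown 0 h library 3 (-0.83, adjusted p = 0.0483). With scaling it was -1.12 (adjusted p = 0.158). The 0 h knockdown difference was 0.18 (SE 0.21), 0.65 with scaling (adjusted p = 0.207) and -0.02 without knockdown 0 h library 2.

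Counted together at 0 h, 1 of the 8 tested genes was called higher in the knockdown (Klk6) and 1 lower (Klk10), where 3.1% of all 14426 genes were called higher and 14.6% lower. At 36 h none was called higher and 1 lower (Wfdc18), against 0.894% and 1.64% of all genes. From 0 h to 36 h in control, 0 of 8 were called higher and 3 lower (Klk6, Wfdc18 and Slpi), against 0.25% and 0.111%. In the knockdown 0 of 8 were called higher and 3 lower (Klk6, Wfdc17 and Wfdc18), against 0.998% and 0.125%. The median over the 8 genes was -0.43, -0.36, -1.01 and -1.12 in these 4 comparisons, beside -0.41, -0.09, -0.01 and 0.33 over all genes. Since the list was drawn up with such values in view, nothing is read from the counts. With no filter on low values none of the 8 was called at 0 h, at 36 h or over time in control. Fits of only the groups compared ended the 0 h calls of Klk6 (adjusted p = 0.15) and Klk10 (0.119) and the calls over time in the knockdown of Klk6 (0.237), Wfdc17 (0.115) and Wfdc18 (0.103). The 0 h and 36 h comparisons share groups in pairs, so they are not separate observations of the same gene.

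**Figure D2:**
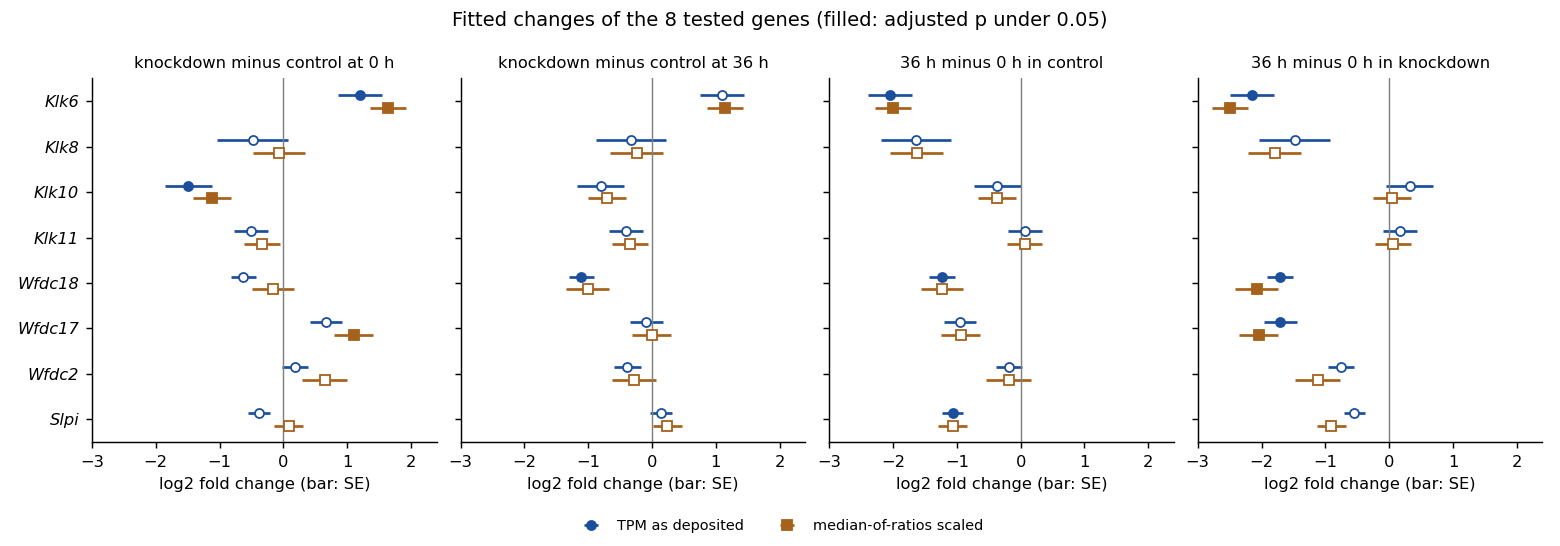
Fitted log2 difference (horizontal axis, on log2(TPM + 1)) of the 8 tested genes in 4 comparisons, with TPM as deposited (blue circles) and after median-of-ratios scaling (brown squares); bars are SE and filled symbols passed at adjusted p under 0.05. Klk6 at 0 h moves from 1.21 to 1.64 with scaling and Wfdc18 from -0.63 to -0.16.

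Whether the change from 0 h to 36 h itself differed between genotypes was fitted as a difference of differences. Over the 8 genes it lay between -0.75 for Wfdc17 (SE 0.36) and 0.69 for Klk10 (SE 0.52), with adjusted p of at least 0.595. No gene of all 14426 passed in limma, where 572 were higher and 194 lower at an unadjusted p under 0.05; with median-of-ratios scaling 1 gene was called, and it was none of these.

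Ratios between 2 genes of the same library do not depend on the scaling of that library. These pairs were picked after the values were seen, so the ratios carry no test. Klk6 over Klk8, genes of 1394 and 1322 bases, was 0.455, 0.436 and 0.315 in control 0 h and 1.30, 2.95 and 0.766 in knockdown 0 h. At 36 h it was 0.165, 0.212 and 0.268 in control and 0.589, 0.542 and 1.81 in the knockdown. At both times all knockdown libraries lay above all controls. The 2.95 is that of knockdown 0 h library 2. In that library Klk8 stood at 0.149 of the mean of libraries 1 and 3, below the lower quartile of 0.300 for genes of its length.

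Klk6 over Klk10 was 0.726, 0.709 and 0.422 in control 0 h and 3.79, 5.69 and 5.43 in knockdown 0 h, and its mean was 8.03 times the control mean. At 36 h it was 0.0771, 0.136 and 0.172 in control and 0.597, 0.404 and 1.34 in the knockdown, 6.09 times. Klk10 over Klk8 lay below control in all knockdown libraries at both times, with means at 0.504 and 0.700 of control.

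Wfdc17 over Wfdc18 was 0.00715, 0.00648 and 0.00607 in control 0 h and 0.0178, 0.0142 and 0.0186 in knockdown 0 h. At 36 h it was 0.0110, 0.00671 and 0.00459 in control and 0.0181, 0.0121 and 0.0128 in the knockdown. All knockdown libraries lay above all controls of their time, by 2.57 and 1.93 times in the mean. Wfdc18 over Slpi overlapped at 0 h and lay lower in all knockdown libraries at 36 h (0.189, 0.215 and 0.269 against 0.537, 0.504 and 0.536).

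**Figure D3:**
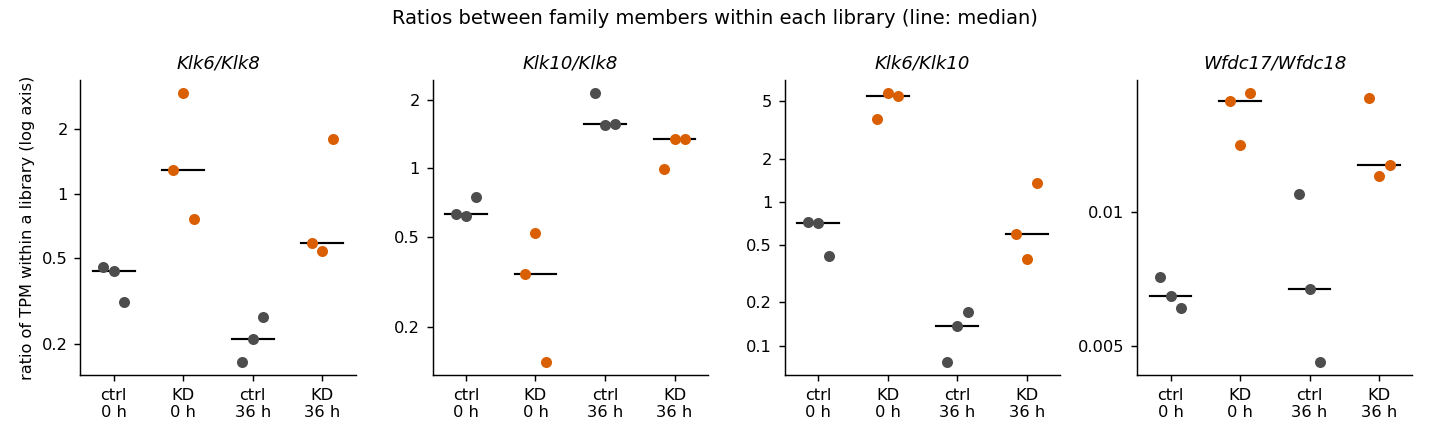
Ratio of TPM between 2 genes within each library (vertical axes, log scale) for 4 pairs; points are libraries, lines are medians, ctrl is control (grey) and KD is Snail1 knockdown (orange). Klk6 over Klk10 runs from 0.422 to 0.726 in control 0 h and from 3.79 to 5.69 in knockdown 0 h.

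The 9 genes were set beside genes of their length in the uneven library 2 of knockdown 0 h. Over all tested genes its TPM relative to the mean of libraries 1 and 3 had a median of 0.496 for genes up to 300 bases, 1.503 for 300 to 600, 0.813 for 600 to 900, 0.584 for 900 to 1200, 0.454 for 1200 to 1500 and 0.672 over 5000. Wfdc18 (521 bases) stood at 1.38 and Wfdc17 (533 bases) at 1.08, Wfdc2 (849 bases) at 1.51 and Slpi (876 bases) at 0.756. The kallikreins of 1322 to 1394 bases stood at 0.436 (Klk6), 0.332 (Klk10) and 0.149 (Klk8). Klk11 (1312 bases) stood at 0.966, above the upper quartile of 0.734 for its class, and Klk7 (1895 bases) at 0.532, both at very low levels. Klk6 and Slpi were near the median of genes of their length, and Klk8 was lower than the lower quartile of 0.300 for its class.

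**Figure D4:**
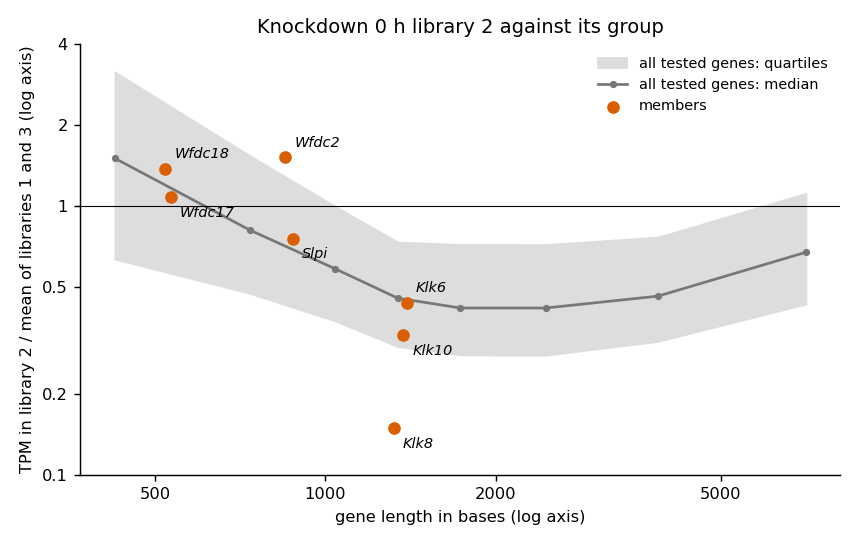
TPM in knockdown 0 h library 2 divided by the mean of libraries 1 and 3 of the group (vertical axis, log scale) against gene length in bases (log scale), for 7 of the genes (orange) and as median and quartiles of all tested genes over 300 bases by length class (grey). Genes of 300 to 600 bases run at 1.503 and genes of 1200 to 1500 bases at 0.454, and Klk8 at 0.149 lies below the quartile band.

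The remaining genes of both families were taken from family lists, drawn up with earlier results of these data known. They are the genes left after the described ones were chosen from measured values. They are therefore not a comparison set picked without sight of the values. Of 21 other kallikreins, 12 were at 0 in all 12 libraries, 19 were below 1 TPM in all, and 1, Klk5, passed the filter. Of 19 other WAP-domain genes, 7 were at 0 in all libraries, 14 were below 1 TPM in all, and 4 passed (Wfdc3, Wfdc5, Wfdc12 and Wfdc21). Of the 5 that passed, 1 (Wfdc3) was called higher in the knockdown at each time and none was called lower. Over all genes 3.1% were called higher and 14.6% lower at 0 h, and 0.894% and 1.64% at 36 h. None of the 5 was called between 0 h and 36 h in either genotype. There 0.25% of all genes were called higher and 0.111% lower in control, and 0.998% and 0.125% in the knockdown.

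Wfdc3, a little-studied WAP-domain gene on chromosome 2 with Slpi and Wfdc2, had 78.3, 76.8 and 73.4 TPM in control 0 h and 195, 207 and 169.6 in knockdown 0 h. At 36 h it had 121, 154 and 123 TPM in control and 245, 234 and 262 in the knockdown, and the groups did not overlap at either time. It was higher in the knockdown at 0 h by 1.31 (SE 0.17, adjusted p = 0.00159), 2.50 times the control mean, and by 1.77 with scaling (adjusted p = 0.00229); the 0 h call held without each library in turn and ended in a fit of only the groups compared (0.0631). At 36 h it was higher by 0.90 (SE 0.17, adjusted p = 0.0237), 1.86 times. The 36 h call ended with scaling (0.999, adjusted p = 0.0589) and on removal of control 0 h library 1 (0.0524) or 2 (0.0526), of control 36 h library 1 (0.125) or 4 (0.14), or of a single knockdown 36 h library (0.0892 to 0.115). It passed with scaling when knockdown 0 h library 2 was also left out. Relative to Wfdc2 in the same library it was 2.22 times the control ratio at 0 h and 2.44 times at 36 h, above all controls. In knockdown 0 h library 2 it did not stand out (207 TPM against 195 and 169.6).

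Klk5, the trypsin-like protease that activates other kallikreins in skin, had 4.54, 2.41 and 4.36 TPM in control 0 h, 2.4, 0.86 and 1.19 in knockdown 0 h, 0.60, 1.35 and 1.66 in control 36 h and 0.10, 0 and 0.39 in knockdown 36 h. Its knockdown differences were -0.96 (adjusted p = 0.0517) at 0 h and -0.90 (adjusted p = 0.157) at 36 h. The genotypes did not overlap at either time, with Klk5 lower in the knockdown where Klk6 was higher, although with scaling they overlapped at 0 h. Without knockdown 0 h library 1 the 0 h value was -1.21 and passed (adjusted p = 0.0272). Wfdc12 was below control in all knockdown libraries at both times (-0.60, adjusted p = 0.0705, and -0.74, adjusted p = 0.0974) and passed at both without knockdown 0 h library 2 (adjusted p = 0.0315 and 0.0181), while with scaling the 0 h difference was -0.19 and the groups overlapped. Wfdc5 differed by -0.97 at 36 h (adjusted p = 0.0833) and passed without the same library (0.0196). Wfdc21, next to Wfdc18 on chromosome 11, overlapped between genotypes at both times (0.02 and 0.15).

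**Figure D5:**
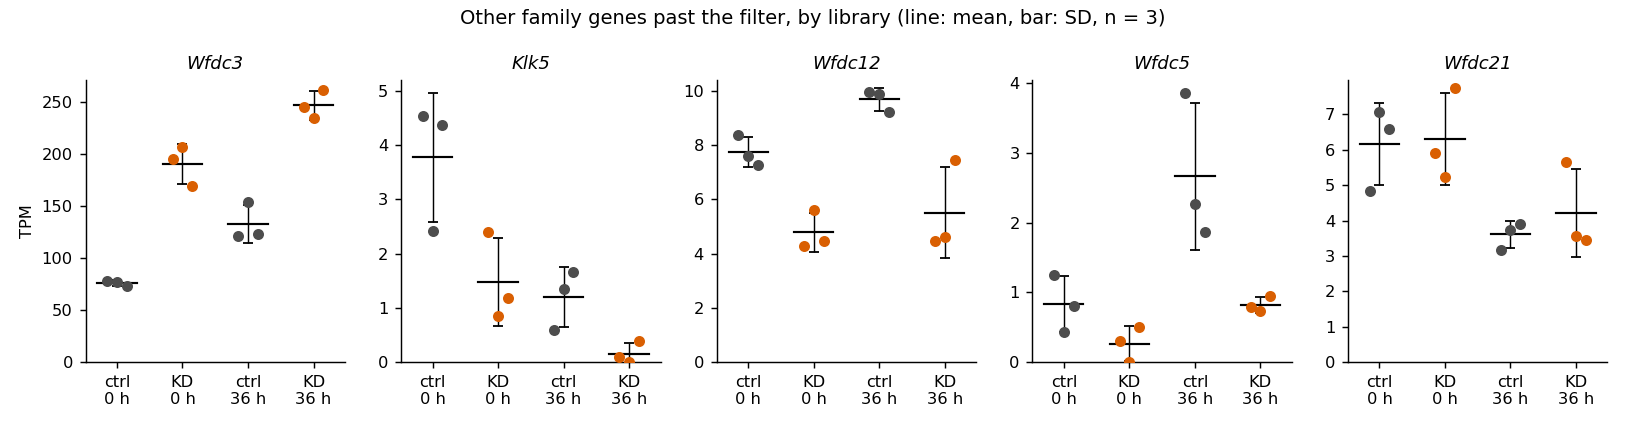
TPM of the 5 further family genes that passed the filter (vertical axes, each from 0) in the 12 libraries; points are libraries, lines are means, bars are SD (n = 3), ctrl is control (grey) and KD is Snail1 knockdown (orange). Wfdc3 is the one with 195 to 207 TPM in knockdown 0 h libraries 1 and 2 against 73.4 to 78.3 in control 0 h.

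The genes that restrain, activate or receive kallikreins were followed through role lists. Of 10 inhibitors of trypsin-like and chymotrypsin-like proteases, 7 were tested. At 0 h none was called higher and 2 lower in the knockdown, beside 3.1% and 14.6% of all genes. At 36 h none was called higher or lower, beside 0.894% and 1.64% of all genes. The 2 at 0 h were Serpine2 and Spint1. Serpine2, the serpin protease nexin-1, had 753 to 1101 TPM in control and 58.3 to 352 in the knockdown (-2.23, SE 0.53, adjusted p = 0.0178); removing control 0 h library 1 (0.059) or 3 (0.0669) ended the call. Spint1, which inhibits matriptase, had 161 to 176 TPM in control and 28.4 to 108 in the knockdown (-1.35, SE 0.40, adjusted p = 0.0406), and lost its call on removal of a single control 0 h library (0.0982 to 0.11), of control 36 h library 1 (0.0519) or 4 (0.0611), or of a single knockdown 36 h library (0.0571 to 0.0595). In both, knockdown 0 h library 2 was the lowest.

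Spink5, whose product inhibits several kallikreins, was at 140.1, 131 and 141 TPM in control 0 h and 327, 254 and 309.5 in control 36 h. In the knockdown it was at 104, 65.1 and 121 TPM at 0 h and 236, 269 and 249.7 at 36 h. In both genotypes all 36 h libraries lay above all 0 h libraries, opposite to Klk6. In control none of the 7 tested inhibitors, Spink5 included, was called over time, beside 0.25% of all genes called higher and 0.111% lower. In the knockdown Spink5 was the 1 called, beside 0.998% of all genes called higher. The rise in the knockdown was 1.42 (SE 0.22, adjusted p = 0.0118) and 1.05 with scaling, the call being lost without any 1 knockdown 36 h library (0.0587 to 0.0759).

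Of 9 activating membrane proteases, 6 were tested and 1, Tmprss4, was called, lower in the knockdown at 0 h, beside 14.6% of all genes. It had 65.1, 66.4 and 67.2 TPM in control and 13.1, 4.83 and 21.9 in the knockdown (-2.44, SE 0.40, adjusted p = 0.00399, and -2.02 with scaling), and the call held without each library in turn and ended in a fit of only the groups compared (0.0664). Of 19 table rows for 18 kallikrein substrates and protease-activated receptors, 8 were tested. At 0 h none was called higher and 1 lower (Fn1, fibronectin), beside 14.6% of all genes. At 36 h Fn1 was again the one called lower, beside 1.64% of all genes. The 36 h call ended on removal of control 36 h library 1 or 4 or of a single knockdown 36 h library (adjusted p from 0.0681 to 0.121). From 0 h to 36 h in the knockdown 1 was called higher, beside 0.998% of all genes. It was Nrg1, which encodes neuregulin 1, a ligand of ERBB receptors (2.56, 1.47 and 4.03 TPM at 0 h and 9.78, 11.8 and 11.98 at 36 h). The difference was 1.78 (adjusted p = 0.0089, but 0.0571 and 0.0572 on removal of knockdown 36 h library 2 and 3). Of 9 targets and partners of SLPI, 5 were tested and 1 was called, at 0 h, where 14.6% of all genes were called lower. It was Grn, the progranulin gene, whose product SLPI protects from cleavage. Grn was lower in the knockdown at 0 h (479, 475 and 542 TPM against 239, 101 and 214; -1.52, SE 0.27, adjusted p = 0.00635, and -1.05 with scaling), also without each library in turn but not in a fit of only the groups compared (0.0886), while Slpi itself was not called there.

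Kallikreins are known for the outer epidermis, and a list of 17 keratinocyte terminal differentiation genes, of which 11 were tested, was counted for that reason. At 0 h, where 14.6% of all genes were called lower, none was called higher and 6 lower in the knockdown (median -1.24, beside -0.41 over all genes). Among them were Dmkn, encoding dermokine (-1.57, adjusted p = 0.00127), and Grhl3, a transcription factor of epidermal barrier formation (-1.90, adjusted p = 0.00359), which both held without each library in turn and ended in fits of only the groups compared (0.0534 and 0.0629), while Sprr1a and Calm4 did not pass with scaling (adjusted p = 0.144 and 0.0959). At 36 h, where 1.64% of all genes were called lower, none was called higher and 1 lower, Sprr2a3 (-1.61, adjusted p = 0.0237). Its call was lost on removal of any 1 library at 36 h but knockdown library 1 (0.0637 to 0.0968). Over time 2 were called higher in control and 3 in the knockdown, beside 0.25% and 0.998% of all genes. None was called lower, whereas Klk6 fell in both. The 2 in control were Cnfn, lost on removal of control 0 h library 1 or 2 or a single control 36 h library (0.0602 to 0.103), and Krtdap, lost with scaling (0.245) and on removal of any library but knockdown 0 h library 2 or 3 (0.0533 to 0.194). In the knockdown Krtdap rose again and did not pass with scaling (0.0978). Of 16 milk and secretory mammary genes, 8 were tested, and at 0 h none was called higher and 4 lower in the knockdown (Ltf, Mfge8, Prlr and Xdh), beside 14.6% of all genes called lower. Of these, Xdh and Prlr did not pass with scaling (adjusted p = 0.0683 and 0.0734) and no call of the 4 held in a fit of only the groups compared (0.0794 to 0.159). Mfge8, Xdh and Prlr each no longer passed once control 0 h library 1 (0.0676, 0.0709 and 0.152) or 2 (0.0523, 0.0548 and 0.0757) was taken out, and Mfge8 and Prlr not without the third (0.064 and 0.0619). Prlr was also lost without 6 of the other libraries taken singly (0.0538 to 0.0829). Over time 2 (Ltf and Lcn2) were called lower in control and 1 in the knockdown, beside 0.111% and 0.125% of all genes. Ltf, encoding lactoferrin, went from at most 3.76 TPM to at most 0.81 and lost its call with a pseudocount of 0.1 (adjusted p = 0.318) and on removal of most single libraries (up to 0.195). Lcn2, encoding lipocalin 2, was the one called in both, from 109, 121 and 105 to 46.9, 33.2 and 46.6 TPM in control (-1.40, adjusted p = 0.0231) and from 157, 155 and 137 to 38.8, 42.4 and 64.0 in the knockdown (-1.64, adjusted p = 0.00572). The control call of Lcn2 was lost without any 1 control library (0.0865 to 0.148) and with scaling (0.0544).

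For likeness of pattern, Pearson's r of log2(TPM + 1) over the 12 libraries was taken against 9346 tested genes (9347 for Klk11) whose mean reached 5 TPM. The 12 points share groups and the uneven library, so r is a description. Klk6 ran closest to Rnd2 (0.926), Cystm1 (0.920) and Timp1 (0.917). Timp1, the metalloprotease inhibitor, was also among the 3 closest to Wfdc17 (0.894), after Smim29 (0.936) and Lcn2 (0.905). Klk8 ran closest to Gla (0.929), Klk10 to Fam110a (0.978) and Klk11 to Thoc2 (0.822). Wfdc2 ran closest to Chd8 (0.938) and Wfdc18 to Ctxn1 (0.934), and Morrbid was among the 3 closest of both (0.909 and 0.904). Slpi ran closest to Lrrc26 (0.971), Tspo (0.942) and Cd68 (0.934). None of the 9 was among the 3 closest of another.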

How the data were processed

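RNA from 12 libraries of HC11 aggregates was sequenced after stranded mRNA preparation, per the labels' protocols. The authors deposited one table of TPM per gene, and the aligner settings and the counting setting behind these values are not given in the sources used here. FastQC, cutadapt 1.9.1, HISAT2 2.2.1, HTSeq, DESeq2 and the build GRCm39 are named in the submitters' processing notes, with no role stated. TPM holds no depth, so precision is given by the spread of 3 libraries per group.

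Genes that reached 1 TPM in 3 or more libraries were tested with limma 3.58.1 (R 4.3.3) on log2(TPM + 1), a pseudocount of 1 that understates changes of low genes, with 1 mean per group over all 12 libraries, moderated variances with a trend, two-sided p-values and Benjamini-Hochberg adjustment over all genes in each of 5 comparisons. The fit was run on simulated data with the same spread in every group. The knockdown 0 h libraries are more uneven than that, so the simulation checks the calculation and not its error rate on these data. The members and all lists were chosen with earlier results of these data known. Named were all 9 genes, every other kallikrein or WAP-domain gene past the filter, called genes of the role lists with the lowest adjusted p (up to 4 a list), and the 3 tested genes with the highest r to each member. Sequences are RefSeq's (GRCm38.p6; 9 of 9 genes matched), aligned with Biopython 1.88; the gene order is from the same build, and no coordinate was carried between builds. Alternatives varied the pseudocount, filter, scaling, variance model, replicate block and libraries used. One of the role lists is not reported here.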

Additional observations from a re-analysis of the deposited data

How the results depend on the processing

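Every called gene kept its direction under all 25 alternatives in the 4 comparisons; counts of called genes did not hold as well. At 0 h the count called higher in the knockdown (1) was 0 with no filter on low values, with only the groups compared and with a replicate block, and 2 with median-of-ratios scaling or quantile normalization. The count called lower (1) was 0 with no filter, only the groups compared, the block, the block with scaling, and scaling without knockdown 0 h library 2 (an alternative chosen after seeing the data), 2 with a filter of 5 TPM or without both knockdown 0 h library 2 and control 36 h library 4, and 3 with quantile normalization. At 36 h the count called higher (0) was 1 with scaling, quantile normalization, only the groups compared, those 2 libraries left out, and scaling without knockdown 0 h library 2; the count called lower (1) was 0 with no filter, scaling, the block and the block with scaling. From 0 h to 36 h the count called lower in control (3) was 0 with no filter, the block and the block with scaling, and 1 with scaling; in the knockdown (3) it was 0 with only the groups compared and 5 with those 2 libraries left out. Scaling without knockdown 0 h library 2 gave 1 lower at 36 h and 4 lower over time in control. Leaving out 1 library at a time gave 0 to 1 higher and 0 to 2 lower at 0 h, 0 to 1 and 0 to 1 at 36 h, 0 to 4 lower in control and 1 to 5 lower in the knockdown over time. The summed level of the 9 genes was 4355 TPM with scaling (SD 1732) and 3561 with mitochondrial genes removed in knockdown 0 h (3309), 1973 with scaling in control 36 h (2161), and 1785 and 1925 in knockdown 36 h (1835). In control 0 h it was 3775 with scaling (4161). The mean of knockdown 0 h was thus below that of control 0 h as deposited and above it with scaling. The cause of these shifts was not tested.

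Directions turned only for genes that did not pass. At 0 h Slpi was 0.0811 with scaling, with or without the block; Wfdc2 was -0.0352 with quantile normalization, -0.0184 without knockdown 0 h library 2 and control 36 h library 4, and -0.0184 to 0.307 over single libraries left out; Klk8 was 0.34 without knockdown 0 h library 2, alone or with control 36 h library 4, 0.52 with scaling as well, and -0.963 to 0.343 over single libraries; Wfdc21 was -0.115 to 0.132. At 36 h Klk8 was 0.00968 with the block and 0.00924 with the block and scaling, Wfdc17 was -0.338 to 0.174 and Wfdc21 -0.0332 to 0.257. Over time in control Klk11 was -0.0302 with quantile normalization, -0.0767 with the block and -0.0264 with the block and scaling. Over time in the knockdown Klk10 was -0.0739 with those 2 libraries left out, -0.16 with scaling and without knockdown 0 h library 2, and -0.0739 to 0.735 over single libraries; Klk11 was -0.0410 with quantile normalization and -0.0310 to 0.412; Wfdc12 was -0.17 with scaling, with or without the block, -0.19 with quantile normalization and -0.0545 to 0.258.

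Whether replicate numbers pair the libraries could not be settled. Same-numbered deviations correlated at -0.154, 0.128 and 0.0966 at 0 h and between -0.201 and 0.132 elsewhere. Some libraries correlated best with their own number and others did not. With so few libraries per group these values cannot decide it, and the block is given only as an alternative. Over all genes, counts ranged over the alternatives from 25 to 1459 higher and 64 to 5038 lower at 0 h (447 and 2103), 2 to 1311 and 3 to 1701 at 36 h (129 and 236), 6 to 174 and 0 to 227 over time in control (36 and 16), and 16 to 1411 and 3 to 161 in the knockdown (144 and 18).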
